A study of Gallus gallus with 5 samples.

Results

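DIO2, STRA6 and RDH5 are genes of the activation of thyroid hormone and of the uptake and first oxidation of vitamin A, and their messenger RNA was followed in the chicken (Gallus gallus) blastoderm, the flat layer of cells from which the embryo forms. They are 3 of 10102 genes to which the transcript accessions in the deposited tables could be matched by symbol, and all 3 passed a filter of FPKM of at least 1 in some library, as 7733 genes did. FPKM counts sequenced fragments per length of transcript and per mapped fragment of the library, so levels can be compared between genes. The genes were chosen from their FPKM values in these same 5 libraries, with the results of every comparison known, so their differences are given as a description and with no test.

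The 5 libraries of polyadenylated RNA covered 1 condition each. The first held unstored blastoderms, another blastoderms after incubation of 4 h at 37 °C, and the other 3 followed storage over 7 days, at 4, 16 and 24 °C. The labels give no strain, egg source or number of blastoderms per library. The series title concerns apoptosis and the cell cycle during dormancy, the pause in development of a cooled egg. With 1 library per condition there is no spread between replicates, so no neighbouring levels can be said to differ beyond it. No difference here has a replicate check. FPKM summed to between 333528 and 389061 per library, and the depth behind a value is unknown. The blastoderm label was set against markers of the epiblast, its main cell layer. NANOG lay between 223 and 526, EPCAM between 391 and 647 and DNMT3B between 129.84 and 516.75. SOX3 was between 27.32 and 109.19 and CDH1 between 12.14 and 14.98. Of the 6 matched markers only SOX2 stayed under 1, between 0.09 and 0.33 in all 5 libraries. In bulk RNA, fewer cells of a type and less RNA per cell cannot be told apart.

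Thyroid hormone reaches the embryo first from the yolk, mostly as thyroxine, a form with little activity at the nuclear receptors. The deiodinase encoded by DIO2, a selenoprotein of the endoplasmic reticulum, removes an iodine from the outer ring of thyroxine and yields triiodothyronine, the form that the receptors bind with high affinity, while DIO3 inactivates both hormones. Vitamin A also comes from the yolk. STRA6 is the cell-surface receptor that takes retinol from its plasma carrier RBP4, and RDH5 is a retinol dehydrogenase that makes retinaldehyde, best known in human and mouse for its work on cis-retinol in the retinal pigment epithelium. Retinaldehyde dehydrogenases then form retinoic acid, the ligand of the RAR and RXR receptors.

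DIO2 was far higher after storage at 24 °C than in any other library. Its FPKM was 9.67 in the unstored library, 24.53 after incubation, 9.99 after storage at 4 °C, 5.34 at 16 °C and 62.04 at 24 °C. The order of levels was thus 24 °C, incubated, 4 °C, unstored and 16 °C, with the unstored and 4 °C libraries 1.03-fold apart. At 24 °C the level lay above that of 90.5% of the filtered genes in the library, and at 16 °C above that of 34.0%.

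The 2 warmer storage temperatures gave the DIO2 values farthest apart, with 11.6-fold more at 24 °C than at 16 °C. Differences between libraries are given below as log2 ratios, the difference in log2(FPKM + 1), which understates the change of low genes. For 24 °C against 16 °C the log2 ratio of DIO2 was 3.31, the highest of 7693 genes. The next gene, NOXO1, an organizer of NADPH oxidase, had 2.59. DIO2 was also the highest gene under 4 of 5 other settings. With a pseudocount of 0.1 it ranked 4, where TIAM1 was the highest gene. Over all 5 libraries, DIO2 spanned 3.31 on the log2 scale. Of 7733 genes, whose median range was 0.92, 0.323% had a range at least this large, DIO2 included.

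Against the unstored library DIO2 was 1.26 higher on the log2 scale after incubation, 0.04 at 4 °C, -0.75 at 16 °C and 2.56 at 24 °C, where it ranked 17 from the highest of 7690 genes. Against the incubated library it was -1.22 at 4 °C, -2.01 at 16 °C and 1.30 at 24 °C. A 4 h incubation at 37 °C and a 7-day storage at 24 °C thus both went with more DIO2 messenger RNA than the unstored state, with 2.53-fold more in the stored library of the pair. All DIO2 values come from a single row of the tables, that of 1 of the 2 transcript accessions that the annotation gives the gene, and fragments of the other accession were not analysed here.

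STRA6 was lowest in the unstored library. Its FPKM was 0.46 there, 4.06 after incubation, 3.0 after storage at 4 °C, 2.40 at 16 °C and 5.30 at 24 °C. By the sum of its rows, the unstored library lay below the other 4. The log2 ratios were 1.79 after incubation, 1.45 at 4 °C, 1.22 at 16 °C and 2.11 at 24 °C. At 4 °C, where few genes differed from unstored, STRA6 ranked 10 from the highest of 7697. The fold rests on the low unstored level. With a pseudocount of 5 the ratios were 0.73, 0.55, 0.44 and 0.92, and with 0.1 that of 24 °C reached 3.27.

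The STRA6 sum joined 2 predicted transcripts whose values exchanged places between libraries. The first held the whole sum in the unstored, incubated and 4 °C libraries, was listed at 0 at 16 °C and had 2.57 at 24 °C. The second was listed at 0 in the unstored, incubated and 4 °C libraries and had 2.40 at 16 °C and 2.73 at 24 °C. At 16 °C all of the STRA6 value therefore came from the second transcript, and at 24 °C 51.5% of it did. Among 513 genes with 2 rows that both reached FPKM of 1 in some library, 3 had each row listed at 0 in a library where the other was at least 1. The others, found after the values were seen, were UBA3, the catalytic subunit of the NEDD8 activating enzyme, and ZNF704.

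An exact 0 can be a failed estimate of how fragments divide between isoforms, so no fold is given for a single transcript against a 0. On the first transcript alone, 24 °C against unstored was 1.29 on the log2 scale and 24 °C against incubated -0.50, where the sum gave 0.32. Whether 24 °C lay above the incubated and 4 °C libraries thus depended on adding the second transcript. Likewise, 16 °C lay above unstored only through the second transcript, since the first was listed at 0 there. The annotation lists 4 STRA6 transcripts, and 2 of them have rows in the tables.

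RDH5 was highest after storage at the warmer temperatures and lowest after incubation. Its FPKM was 3.78 in the unstored library, 3.03 after incubation, 5.47 after storage at 4 °C, 8.01 at 16 °C and 7.79 at 24 °C. The 3 stored libraries all lay above the unstored and incubated ones, and 16 and 24 °C differed 1.03-fold. The log2 ratios to unstored were -0.25 after incubation, 0.44 at 4 °C, 0.91 at 16 °C and 0.88 at 24 °C. Those of 16 and 24 °C stayed below 1 on the log2(FPKM + 1) scale, although the FPKM itself was 2.12-fold and 2.06-fold higher. Against the incubated library the ratios were 1.16 at 16 °C and 1.13 at 24 °C. The range of RDH5 over the libraries, 1.16, was matched or exceeded by 33.0% of all genes.

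RDH5 was also a sum of 2 rows, here with the same accession listed more than once, as happened for 51 accessions in the tables. The first row was 2.69, 2.40, 3.76, 4.13 and 4.90 in the unstored, incubated, 4, 16 and 24 °C libraries, and the second 1.09, 0.63, 1.71, 3.88 and 2.89. Both rows were lowest after incubation and higher in every stored library than in the unstored one. They differed in which storage temperature was highest, 24 °C for the first row and 16 °C for the second. The second row held 20.8% of the sum after incubation and 48.4% at 16 °C. The sources used here do not say what distinguishes the rows.

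**Figure D1:**
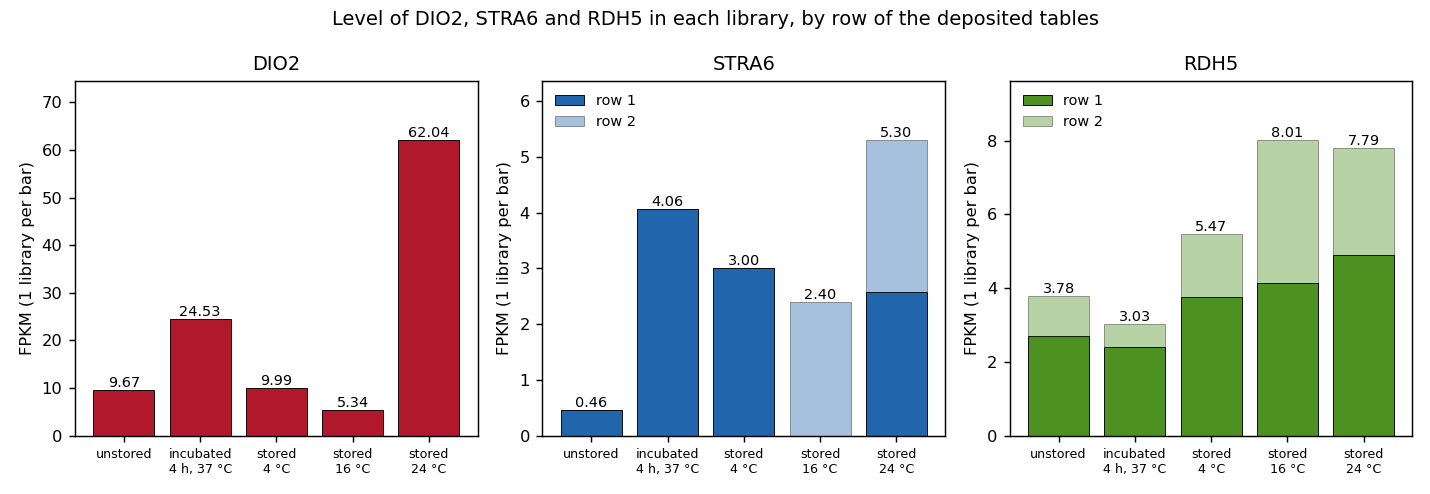
FPKM of DIO2, STRA6 and RDH5 in the 5 libraries, 1 bar per library with no replicates and with the rows of the tables stacked; each panel has its own axis from 0. DIO2 stands at 62.04 at 24 °C against 5.34 at 16 °C, the STRA6 bar changes from the first to the second row between 4 and 16 °C, and both RDH5 rows are lowest after incubation.

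The order of the libraries differed between the 3 genes. After incubation, DIO2 and STRA6 were higher and RDH5 was slightly lower. At 16 °C, DIO2 was below its unstored level while STRA6 and RDH5 were above theirs. All 3 were above it in the 24 °C library. As a measure of likeness, each gene's log2(FPKM + 1) values were centred on their mean over the 5 libraries and the root mean square difference between genes was taken. It was 0.72 between STRA6 and RDH5, 0.89 between DIO2 and STRA6 and 1.25 between DIO2 and RDH5. Among 7525 candidate genes in order of nearness to DIO2, STRA6 took place 325 and RDH5 place 4692. In order of nearness to STRA6, RDH5 took place 3096 and DIO2 place 5479. From RDH5, STRA6 took place 5317 and DIO2 place 7404.

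A log2 ratio of 1 or more in either direction was counted as a difference of 2-fold. By this count DIO2 and STRA6 were higher after incubation, where 8.48% of all genes were higher and 2.53% lower. At 4 °C STRA6 was higher, against 0.637% of all genes, with 0.0909% lower. At 16 °C STRA6 was higher, against 7.65% higher and 8.75% lower. At 24 °C DIO2 and STRA6 were higher, against 10.5% higher and 8.35% lower. Because the genes were picked with these contrasts known, nothing is read from their counts.

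Against the incubated library, DIO2 was lower at 4 °C, as were 4.73% of genes. At 16 °C DIO2 was lower, with 14.3% of genes, and RDH5 higher, with 5.44%. At 24 °C DIO2 and RDH5 were higher, with 5.40%. Between storage temperatures, DIO2 was higher at 24 °C than at 4 °C, by 2.52, where 9.52% of genes were higher, and higher at 24 °C than at 16 °C, where 2.83% were. None of the 3 was 2-fold different between 16 and 4 °C.

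**Figure D2:**
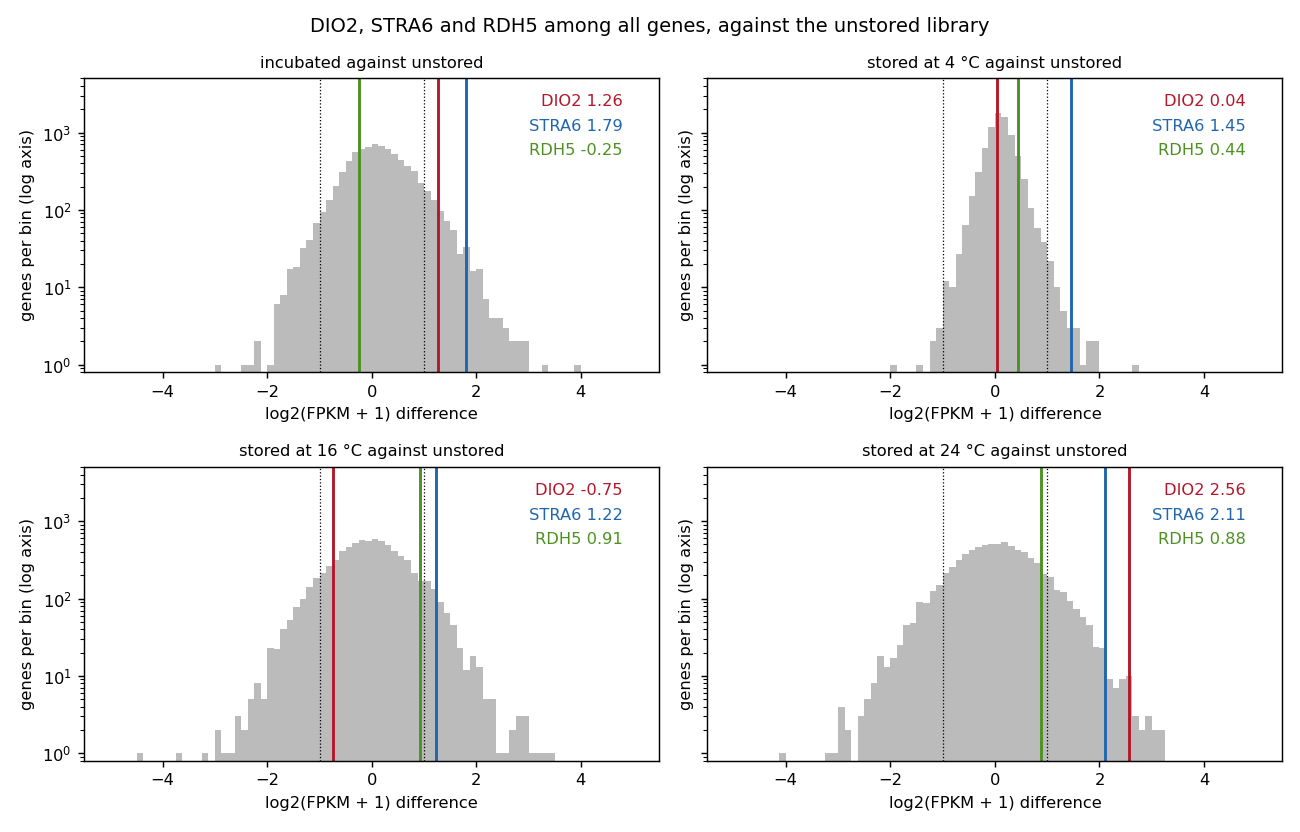
Log2(FPKM + 1) differences of all filtered genes from the unstored library in grey, with genes per bin on a log axis; coloured lines mark DIO2, STRA6 and RDH5 and dotted lines a difference of 1 either way. DIO2 moves from -0.75 at 16 °C to 2.56 at 24 °C, and STRA6, as the sum of its rows, lies at 1.22 or more in every panel.

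Other genes of thyroid hormone handling were set against the same threshold. Of 45 further symbols listed for this pathway 28 were matched and 20 passed the filter. After incubation 2 of the 20 (10%) were at least 2-fold higher and none lower, beside 8.48% and 2.53% of all filtered genes. At 4 °C there were none either way, beside 0.637% and 0.0909%. At 16 °C 2 (10%) were higher and 4 (20%) lower, beside 7.65% and 8.75%. At 24 °C 5 (25.0%) were higher and 1 (5.0%) lower, beside 10.5% and 8.35%. Of 20 genes, 1 gene is 5.0%. The shares after incubation and at 4 °C therefore lie within 1 gene of those of all genes. So do those of higher genes at 16 °C and of lower genes at 24 °C. Nothing particular to thyroid hormone genes is read from the remaining shares. The medians of the 28 matched genes' log2 ratios were 0.19, 0.11, 0.11 and 0.13, beside 0.06, 0.06, 0.00 and 0.02 over all 10102 genes.

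Among the deiodinases, DIO3 differed from DIO2 in direction at 24 °C. DIO3 FPKM was 3.06 in the unstored library, 3.33 after incubation, 5.73 at 4 °C, 1.15 at 16 °C and 0.99 at 24 °C, where its log2 ratio was -1.03. That ratio only just passed the threshold, at a low FPKM. Under some alternative settings no thyroid hormone gene was counted as lower at 24 °C. At 16 °C both DIO2 and DIO3 were below their unstored levels. DIO1, which can both activate and inactivate thyroid hormone, stayed between 0.21 and 0.94.

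THRA, the thyroid hormone receptor alpha, was at 1.89 in the unstored library, 10.35 after incubation (log2 ratio 1.97), 4.05 at 4 °C, 2.37 at 16 °C and 5.30 at 24 °C (1.12). As for DIO2, the incubated and 24 °C libraries lay above the other 3 for THRA. Unlike DIO2, THRA was higher in the incubated library than in the 24 °C one. THRB, the beta receptor, was between 0.03 and 0.47. Of 7 matched receptor cofactors, the coactivators NCOA1 (1.86) and NCOA3 (1.27) were higher at 24 °C. The other 5 had log2 ratios below 0 there, and the median of the 7 was -0.09. At 16 °C NCOA1 and NCOA3 were at 0.74 and 0.90. TBL1X, a subunit of the corepressor complex, was lower at 16 °C (-1.05).

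The DIO2 enzyme needs selenocysteine and is removed through ubiquitin, as known from mammals. SEPSECS, which makes selenocysteine on its transfer RNA, was at 14.46 after incubation against 4.18 unstored (1.58) and between 4.96 and 5.53 after storage. SEPHS1, a relative of selenophosphate synthetase, was lower at 16 °C (-1.73) and just short of 2-fold lower at 24 °C (-0.98). Of 4 matched genes of DIO2 turnover, the deubiquitinase USP33 was higher at 16 °C (1.15) and 24 °C (1.23), as was UBE2J1, a ubiquitin-conjugating enzyme of the endoplasmic reticulum (1.56 and 1.35). WSB1, the ligase subunit that recognises DIO2, was lower at 16 °C (-1.03). The carrier SLC7A5, which moves amino acids and also thyroid hormones, was lower at 16 °C (-1.0) and only just short of that at 24 °C (-0.96).

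Genes that handle retinoids were counted in the same way. Of 67 symbols besides STRA6 and RDH5, 47 were matched and 33 passed the filter. After incubation 5 of the 33 (15.2%) were at least 2-fold higher, beside 8.48% of all filtered genes, and none was lower, beside 2.53%. At 4 °C there were none either way, beside 0.637% higher and 0.0909% lower. At 16 °C 3 (9.09%) were higher, beside 7.65%, and none lower, beside 8.75%. At 24 °C 5 (15.2%) were higher, beside 10.5%, and 1 (3.03%) lower, beside 8.35%. Nothing particular to retinoid genes is read from these shares. The medians of the 47 matched genes' log2 ratios were 0.26, 0.14, 0.08 and 0.28, beside 0.06, 0.06, 0.00 and 0.02 over all 10102 genes.

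Transcripts of the plasma carriers RBP4 and TTR were scarce. RBP4, the retinol carrier that STRA6 binds, was between 0.16 and 0.90, and TTR, which holds RBP4 in plasma and carries thyroid hormone, between 0.04 and 0.19. LRAT, which stores retinol as esters, was at most 0.38. CRABP1, which binds retinoic acid in the cytoplasm, was between 5.27 and 8.57. LRP2, the endocytic receptor megalin, was at 2.23 in the unstored library, 5.40 after incubation (0.99) and 5.97 at 24 °C (1.11).

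RDH10 and ALDH1A2 were the genes of retinoic acid synthesis that passed 2-fold, both after incubation. RDH10, the main retinol dehydrogenase of the mouse embryo, was at 8.90 in the unstored library, 19.97 after incubation (1.08), 15.72 at 4 °C, 16.83 at 16 °C and 11.01 at 24 °C. It was higher than RDH5 in all 5 libraries. ALDH1A2, which converts retinaldehyde to retinoic acid, was at 4.25, 12.61 (1.37), 9.16, 7.39 and 10.44 (1.12) in the same order. All 4 non-unstored libraries thus lay above the unstored one for both genes, as for the summed STRA6 value. The same held for other filtered retinoid genes of other steps, among them CRABP1, CYP26A1, RARB, RXRG and RARRES2.

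Of the remaining enzymes, DHRS3, which returns retinaldehyde to retinol, stayed between 6.96 and 11.80, and its relative DHRS4 was lower at 24 °C (-1.15). CYP26A1, which breaks down retinoic acid, was at 0.55 in the unstored library and between 1.25 and 1.54 in the others. PNPLA2, a triglyceride lipase (1.34), and RPE65, the retinoid isomerase of the visual cycle (1.30), were higher at 16 °C, the latter at an FPKM of 2.51. At 24 °C their ratios were 0.88 and 0.65.

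Among receptors and response genes, RARB was higher after incubation (1.08, FPKM 1.79) and RXRG at 24 °C (1.28, FPKM 3.28). RARA was at 14.85 in the unstored library, 29.92 after incubation and 7.64 at 16 °C, with ratios of 0.96 and -0.88. RARRES2, chemerin, was higher after incubation (1.12) and at 24 °C (1.38).

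**Figure D3:**
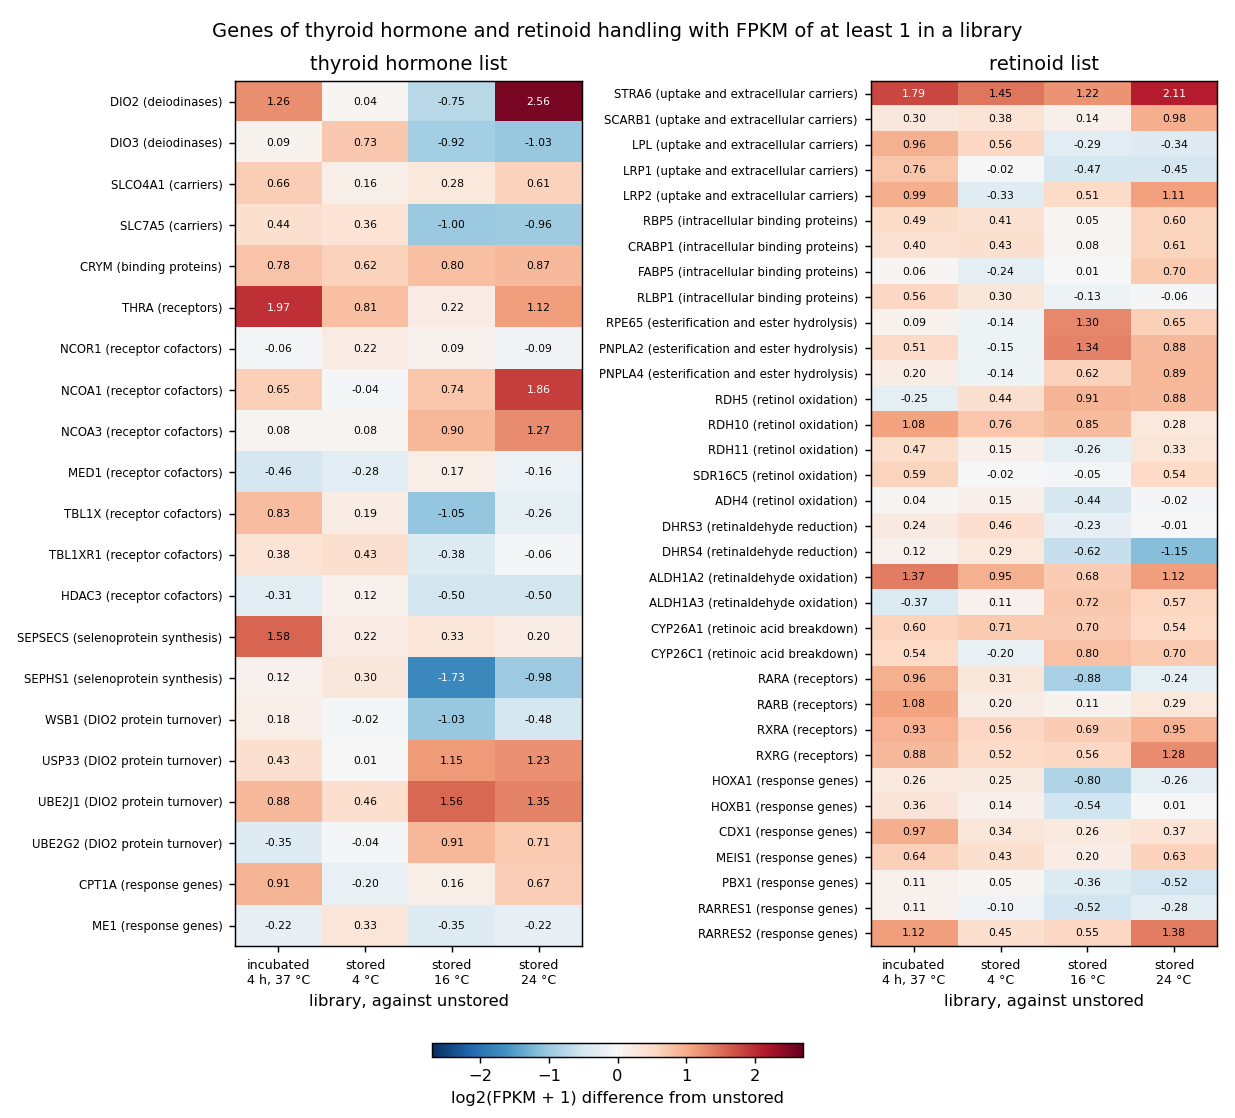
Log2(FPKM + 1) differences from the unstored library for the 21 thyroid hormone genes and 35 retinoid genes that passed the filter, DIO2, STRA6 and RDH5 included and 1 retinoid gene not shown; red is higher and blue lower, 1 library per column. DIO2 (2.56) and DIO3 (-1.03) differ in sign at 24 °C. STRA6 and ALDH1A2 are above 0 in all 4 columns, as are other retinoid genes such as RDH10, CRABP1 and CYP26A1.

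Genes with profiles nearest to each of the 3 were found by the same distance among the 7525 candidates, genes with an established symbol that passed the filter and had FPKM above 0 in all libraries. Nearest to DIO2 were MELTF (distance 0.49), a transferrin relative at the cell surface, UBE2L6 (0.49), a ubiquitin and ISG15 conjugating enzyme, SPP1 (0.56), the matrix protein osteopontin, KIAA1462 (0.57) and NOXO1 (0.59). Their distances exceeded those of the genes nearest to STRA6 or RDH5. Of the 5 genes nearest to STRA6, 4 were DNAAF9 (0.24), CERS4 (0.28), a ceramide synthase, UPK3BL (0.29) and MST1R (0.29), a receptor tyrosine kinase of epithelia. Nearest to RDH5 were CLK3 (0.10), a kinase of splicing factors, TTC7B (0.10), PFKFB2 (0.11), a regulator of glycolysis, BAIAP2L1 (0.12) and ALDH1A3 (0.12). ALDH1A3, a retinaldehyde dehydrogenase, was at 1.42, 0.87, 1.61, 2.98 and 2.60 in the unstored, incubated, 4, 16 and 24 °C libraries. A profile of 5 points, each from 1 library, describes these libraries and says nothing of shared control.

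**Figure D4:**
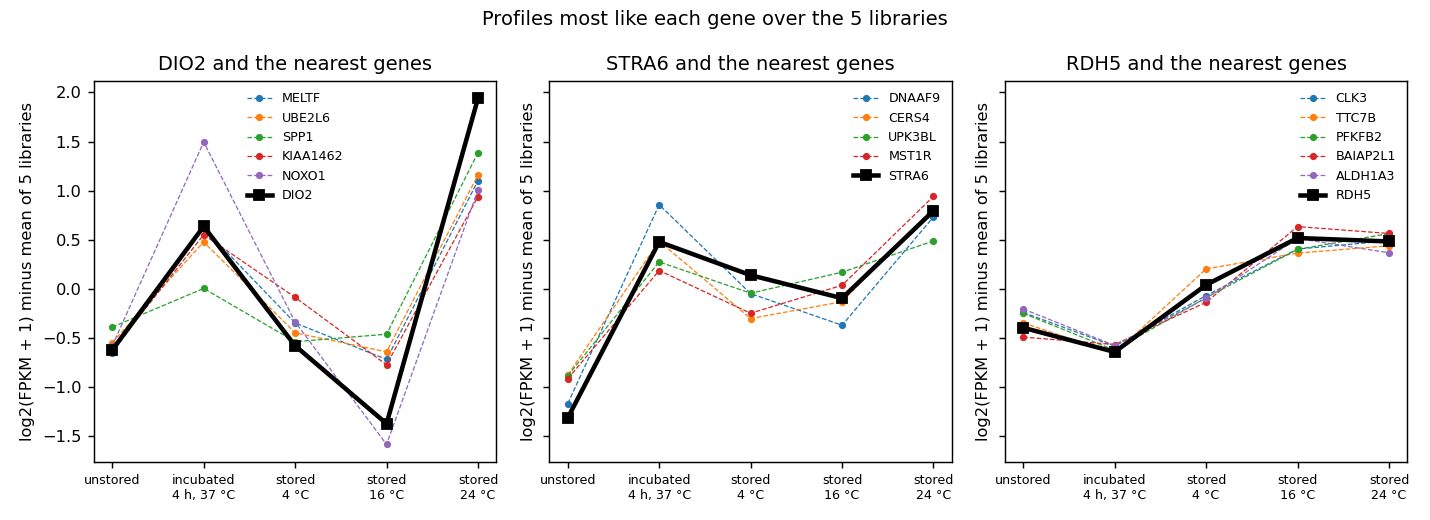
Log2(FPKM + 1) of DIO2, STRA6 and RDH5 (black squares) and the 5 nearest genes to each (dashed, 4 shown for STRA6), minus each gene's mean over the 5 libraries; lines join libraries to guide the eye and imply no order. The genes near RDH5 follow it within a distance of 0.12, while DIO2 exceeds its neighbours at 24 °C.

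Markers of cell types that could contribute these transcripts also differed between libraries. The 14 matched markers of hypoblast and endoderm share LRP2, TTR and a further gene not reported here with the retinoid list. These markers summed to FPKM 138 in the unstored library, 254 after incubation, 232 at 4 °C, 189 at 16 °C and 309 at 24 °C. APOA1 carried much of this sum, and the other 13 markers summed to 116, 151, 186, 75.6 and 111 in the same order, with 4 °C highest and 16 °C lowest. Of the 14, 6 passed 2-fold upward after incubation, 6 at 4 °C, 2 at 16 °C and 6 at 24 °C, while 1, 0, 2 and 2 passed it downward. The lower markers were OTX2 in the incubated, 16 and 24 °C libraries and GATA5 at 16 and 24 °C. Over all genes the shares higher and lower were 8.48% and 2.53%, 0.637% and 0.0909%, 7.65% and 8.75%, and 10.5% and 8.35%. APOA1, an apolipoprotein, was at 21.38 in the unstored and 198.45 in the 24 °C library, while APOB was at most 0.02. Egg white and oviduct markers, 8 matched, summed to 5.67 in the unstored library, 7.43 after incubation, 4.33 at 4 °C, 11.60 at 16 °C and 33.09 at 24 °C. The sum was highest where DIO2 was highest, and second highest at 16 °C, where DIO2 was lowest. SPP1 of this set is also among the genes named above as nearest to DIO2, so the set and those neighbours overlap. TF, AVD and SPP1 were at least 2-fold higher at 24 °C and AVD at 16 °C, and ovalbumin (OVAL) was at most 0.05.

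The 6 matched epiblast markers summed to 1779 in the unstored library, 1170 after incubation, 1755 at 4 °C, 1008 at 16 °C and 818 at 24 °C. Of the 6, NANOG, SOX3 and DNMT3B were at least 2-fold lower at 16 and at 24 °C, beside 8.75% and 8.35% of all genes. None was higher in any library, or lower after incubation or at 4 °C, beside the shares over all genes given above. The 9 markers of extra-embryonic ectoderm and epithelial barrier summed to between 1109 and 1630. CLDN1 alone was between 973 and 1502 and carried most of that sum. Only GRHL2 of this set passed 2-fold, higher after incubation (1.17), beside 8.48% of all genes. For the retina and its pigment epithelium, where RDH5 is best known, the sum of 6 markers was between 13.74 and 22.70, with BEST1 at most 0.08 and TYR listed at 0 in all 5 libraries. MITF and PMEL, which are pigment cell genes, made up most of that sum. MITF was between 5.27 and 13.53, at least 2-fold higher after incubation (1.21), PMEL was between 3.97 and 9.42, and RPE65 was higher at 16 °C as given above. Sums of markers of red cells (4 matched), white blood cells (5) and granulosa and oocyte membrane (5) were between 4.42 and 9.02, 2.38 and 4.83, and 3.01 and 8.71. The white blood cell sum was lowest in the unstored library and highest after incubation. The granulosa sum was highest at 4 °C and lowest at 24 °C. Of these sets only AMH, a granulosa marker, passed 2-fold, lower at 24 °C (-1.24), beside 8.35% of all genes. The part of any of these cell types in the values of DIO2, STRA6 and RDH5 was not tested.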

How the data were processed

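The authors deposited FPKM values with 2 decimals for 32188 rows of RefSeq transcript accessions, per the file headers. The submitters' processing notes name TopHat2 2.0.8, Cufflinks 2.0.2 and galGal4 but not what each was used for. The sources used here do not give the annotation counted or any scaling of libraries to each other. Symbols came from the RefSeq table of assembly GRCg7b by accession without version, which named 12609 rows (39.2%), and rows of a symbol were summed. Isoforms without a match are missing from a gene's value. No coordinates or sequences were used.

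Log2(FPKM + 1) differences between the 5 libraries were computed with Python 3.11.15 and pandas 2.3.3. Counts over all genes used FPKM of at least 1 in some library and above 0 in both libraries compared. The counting was tested on simulated data with large changes, made from genes with unstored FPKM of at least 5. That test did not cover lower values, such as those of STRA6 and RDH5 in the unstored library. List members were matched by exact symbol, and TTR is in both lists. The genes and lists were chosen with earlier results of these data known. Named genes are DIO2, STRA6 and RDH5, list genes that passed 2-fold or set the rate of a step, and the 5 nearest profiles. TTR was named after its values were seen. A few genes that this rule names are not reported here, but they stay in the counts, medians and sums. Alternatives were pseudocounts of 0.1 and 5, the highest row of a symbol in place of the sum, size factors from median ratios, rescaling to an FPKM sum of 1000000, no filter, a minimum mean FPKM of 5, and Pearson correlation for nearest genes. The marker sum without APOA1 was added after seeing the data.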

Additional observations from a re-analysis of the deposited data

How the results depend on the processing

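Of 150 log2 ratios of DIO2, STRA6 and RDH5 recomputed under 5 alternatives, 135 kept their side of the 2-fold threshold, and no called ratio changed sign. With a pseudocount of 5, STRA6 against unstored fell short of 2-fold at 0.73 (incubated), 0.55 (4 °C), 0.44 (16 °C) and 0.92 (24 °C), as did DIO2 at 4 °C (-0.98) and RDH5 at 16 °C (0.70) and 24 °C (0.67) against incubated. This left 1, 0, 0 and 1 of the 3 genes past 2-fold against unstored and 0, 1 and 1 against incubated. With the highest row, RDH5 against incubated was 0.59 at 16 °C and 0.80 at 24 °C, leaving 1 gene each. RDH5 against unstored passed 2-fold with rescaled FPKM (1.14 at 16 °C, 1.10 at 24 °C) and with a pseudocount of 0.1 (1.06 and 1.02), and so did STRA6 for 24 °C against 16 °C (1.05 and 1.11). The gene count was then 2 at 16 °C against unstored and 2 for 24 °C against 16 °C under either setting, and at 24 °C against unstored it was 3 in place of 2. Size factors moved no gene across the threshold. By construction a larger pseudocount shrinks, and a smaller one or rescaling enlarges, the ratios of low genes. For DIO2, 24 °C against unstored ranged from 2.19 to 2.77. Its rank for 24 °C against 16 °C, recomputed after seeing the data, was 1 to 4.

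Counts over all genes against unstored, higher and lower, were 653 and 195 for incubated (160 to 1096 and 68 to 362 over the alternatives), 49 and 7 at 4 °C (6 to 174 and 0 to 59), 588 and 673 at 16 °C (160 to 1077 and 312 to 956), and 805 and 642 at 24 °C (260 to 1394 and 338 to 895). Retinoid genes, STRA6 and RDH5 included, that were higher numbered 6 (1 to 17), 1 (0 to 7), 4 (0 to 11) and 6 (1 to 15), and those lower 0, 0, 0 and 1 (0 to 1 at 24 °C). Thyroid hormone genes, DIO2 included, that were higher numbered 3 (2 to 5), 0 (0 to 1), 2 (1 to 5) and 6 (4 to 8), and those lower 0, 0, 4 (1 to 5) and 1 (0 to 3). Pearson correlation in place of distance kept 0 of the 5 genes nearest to DIO2, 0 for STRA6 and 1 for RDH5, so these neighbours depend on the measure. Depth is unknown, and values near 1 FPKM or below carry an error that cannot be stated.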
